A study of Mus musculus with 2 samples.

Results

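Connexin and pannexin genes were followed in sorted lingual cells of the newborn mouse. The 8 genes described, chosen by symbol, are *Gja1*, *Gjb1*, *Gjb2*, *Gjb5*, *Gjb6*, *Gjc1*, *Panx1* and *Panx3*, of 21628 entries in the deposited table. They are gap junction and pannexin genes of stratified epithelium and stroma, and the table holds 15 further connexin and pannexin genes, some of which are given for context. RNAseq profiled 1 library of GFP-high cells and 1 library of GFP-low cells, each of about 100000 cells sorted from dissociated lingual epithelium of Sox2GFP pups at P0, the day of birth. All cells of both groups carried the same reporter, GFP expressed from the *Sox2* locus, and differed in how brightly they fluoresced. Pups of several litters were pooled, of both sexes and of mixed background, so no value belongs to 1 animal. With 1 library per population there is no replicate spread, so no test was run, and a difference below is one between these 2 libraries.

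Connexins are four-pass membrane proteins that assemble as hexamers, and hexamers of neighboring cells dock to form gap junctions, through which ions and small molecules pass from cell to cell. Keratinocytes of skin and oral mucosa use several connexins, whose mixture varies with the layer of the epithelium. Pannexins have a similar membrane layout without sequence similarity to connexins, and PANX1 forms channels in the plasma membrane that release ATP, which acts on receptors of the cell itself and of its neighbors.

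Levels are in FPKM, sequenced fragments per kilobase of transcript relative to all mapped fragments, which is corrected for length and so allows levels of different genes to be set side by side. Folds were computed from the FPKM as deposited. A gene was counted as enriched in a population when its FPKM there was at least 5 and at least 1.5 times that of the other population. In the table as a whole 10360 entries reached 5 FPKM in the GFP-high library against 10444 in the GFP-low library, and the summed FPKM was 1071442 and 999614. *Sox2*, which encodes the transcription factor the sort was based on, had an FPKM of 112.3 in the GFP-high library against 59.0 in the GFP-low library. The basal keratinocyte keratin *Krt14* was abundant in both, at 6672 and 9635 FPKM. Transcripts of fibroblasts were also present in both, with a summed FPKM of 507 and 2466 over 9 marker genes. The labels give about 75000000 reads per sample, while low FPKM tended to fall on steps of whole reads at about 27000000 reads for GFP-high and 35000000 for GFP-low cells. These depths were used only to say roughly how many reads stand behind low values and for a counting interval of the *Gjb1* ratio.

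Of the 8 genes, *Gjb2* alone was enriched by this rule, in GFP-high cells, and none was enriched in GFP-low cells. *Gjb2* encodes connexin 26 (Cx26), a connexin of keratinocytes and of the supporting cells of the cochlea, in which its loss causes deafness. It had an FPKM of 136.64 in the GFP-high library against 60.12 in the GFP-low library, a fold of 2.27. *Gja1*, which encodes Cx43, the connexin found in the most tissues, had the highest FPKM of the 8 in both populations, 532.04 in the GFP-high library against 418.58 in the GFP-low library, a fold of 1.27. *Gjc1* and *Panx1* were at nearly the same FPKM in both populations. *Gjb1* was under 1 FPKM in both, and *Panx3* was listed at 0 in GFP-high cells and at 0.01 FPKM in GFP-low cells.

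**Figure D1:**
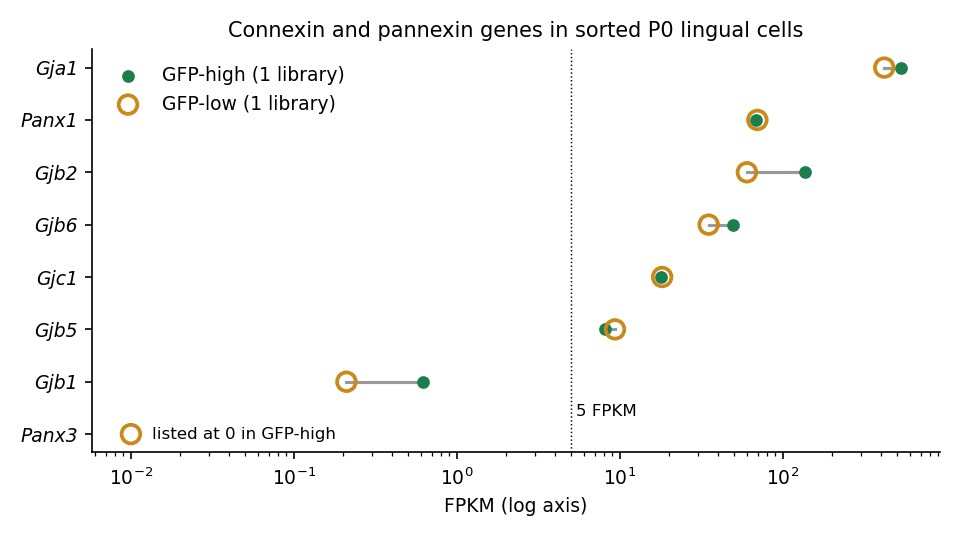
FPKM of the 8 connexin and pannexin genes on a log axis, 1 filled point for the GFP-high library and 1 open point for the GFP-low library, with a dotted line at 5 FPKM and no error bars since each population has 1 library. The points of *Gjb2* lie apart, at 136.64 and 60.12 FPKM, while those of *Panx1* and *Gjc1* coincide, and *Panx3*, listed at 0 in GFP-high cells, has only its GFP-low point.

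Against the background of the table, 1 of 8 is not a large share. Among 21590 genes with a number in both populations, 4.72% were enriched in the GFP-high library against 4.44% in the GFP-low library. Only genes at 5 FPKM or more in at least 1 population could pass, which holds for 6 of the 8 (*Gjb1* and *Panx3* could not). Of 10760 such genes, 9.48% were enriched in the GFP-high library against 8.90% in the GFP-low library. Of the 6, *Gjb5*, *Gjc1* and *Panx1* were within 1.2-fold in either direction, and so were 55.0% of the 10760 genes. The median log2 ratio of GFP-high to GFP-low was 0.16 over the 6 and −0.04 over the 10760 genes. The ratio of *Gjb2* was above that of 97.0% of those genes, that of *Gjb6* above 88.7%, that of *Gja1* above 83.5%, that of *Gjc1* above 51.4%, that of *Panx1* above 51.3% and that of *Gjb5* above 30.6%. *Gjb2* thus lay in the upper tail of the ratios and *Gjc1* and *Panx1* in their middle.

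**Figure D2:**
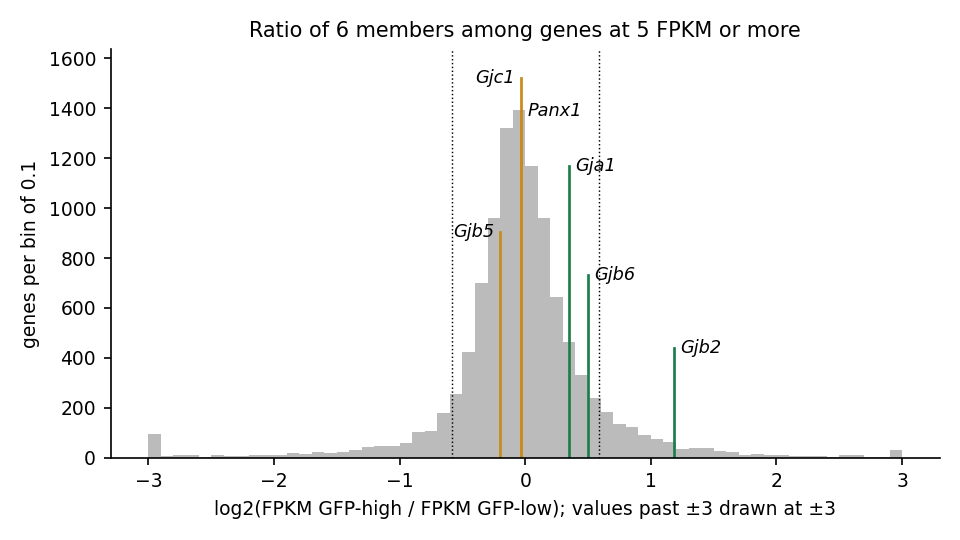
Histogram of the log2 ratio of GFP-high to GFP-low FPKM over the 10760 genes at 5 FPKM or more in at least 1 population, with the ratios of 6 connexin and pannexin genes as vertical lines (line heights differ only to fit the names) and dotted lines at 1.5-fold. Only *Gjb2*, with a log2 ratio of 1.18, lies past the dotted lines, *Gjb6*, at 0.50, lies inside the right one, and *Gjc1* and *Panx1*, both at −0.03, lie at the peak.

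*Gjb2* (ENSMUSG00000046352, chromosome 14, 57098600–57104702, minus strand) and *Gjb6* (ENSMUSG00000040055, chromosome 14, 57123303–57133611, minus strand) are neighbors in mm10, 18.6 kb apart, in the GENCODE M21 annotation. *Gjb6* encodes Cx30, which in the cochlea forms channels together with Cx26 and whose mutations cause an ectodermal dysplasia of hair, nails and skin. Both genes have their whole coding sequence in 1 exon, of 226 codons in *Gjb2* and 261 in *Gjb6*. *Gjb6* had an FPKM of 49.55 in the GFP-high library against 35.03 in the GFP-low library, a fold of 1.41, which is under the limit of 1.5. Both were thus higher in GFP-high cells, *Gjb2* by more. *Gjb2* was 2.76 times the FPKM of *Gjb6* in the GFP-high library against 1.72 times in the GFP-low library. The third connexin gene of this stretch, *Gja3*, which encodes a connexin of lens fibers and starts the cluster 40.5 kb before *Gjb2*, was at 0.39 FPKM in the GFP-high library against 1.66 in the GFP-low library. *Gjb2* thus had 350 times the FPKM of *Gja3* in the GFP-high library against 36.2 times in the GFP-low library. Both multiples rest on *Gja3* values under 5 FPKM, with about 29 reads in the GFP-high library. *Gja3* was the one of the 3 with the higher FPKM in GFP-low cells. Its fold of 4.26 was 1.91 after 1 was added to each FPKM.

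The bases before the starts of *Gjb2* and *Gjb6* are shown because these neighbors had different ratios, and those of *Gja1* because it was the most abundant connexin. Each is the 250 bases before the annotated start in RefSeq (GRCm38.p6), written 5′ to 3′ on the strand of the gene. Positions are chr14:57104703-57104952 (minus) for *Gjb2*, chr14:57133612-57133861 (minus) for *Gjb6* and chr10:56377050-56377299 (plus) for *Gja1*. Capitals mark matches on either strand to any of 6 motifs, the GC box GGGCGG, the TATA box TATAAA, the CAAT box CCAAT, the AP-1 site TGANTCA, the SOX core AACAAAG and the FOX core TGTTTAC.
Gjb2: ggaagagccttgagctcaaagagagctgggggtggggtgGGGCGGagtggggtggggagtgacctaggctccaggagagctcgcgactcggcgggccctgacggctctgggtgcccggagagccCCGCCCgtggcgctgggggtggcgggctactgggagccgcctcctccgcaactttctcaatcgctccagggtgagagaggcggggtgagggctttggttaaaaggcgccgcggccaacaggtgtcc
Gjb6: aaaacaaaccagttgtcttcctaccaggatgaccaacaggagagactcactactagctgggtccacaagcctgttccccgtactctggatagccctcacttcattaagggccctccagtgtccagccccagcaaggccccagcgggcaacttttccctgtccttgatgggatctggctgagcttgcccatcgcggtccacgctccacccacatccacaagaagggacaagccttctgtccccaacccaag
Gja1: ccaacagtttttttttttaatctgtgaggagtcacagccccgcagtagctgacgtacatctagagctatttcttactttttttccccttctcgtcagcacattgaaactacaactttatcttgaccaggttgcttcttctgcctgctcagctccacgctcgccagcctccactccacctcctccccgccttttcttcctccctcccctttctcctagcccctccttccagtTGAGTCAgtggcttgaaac
No marked match overlaps another. The *Gjb2* stretch held 2 GC boxes, which end 206 and 121 bases before the start, a motif found in 32.7% of the 32851 promoters in the table. It was 69.2% G and C, more than in 89.6% of those promoters. The *Gjb6* stretch, 56.8% G and C, held no match to any of the 6 motifs. The *Gja1* stretch held 1 AP-1 site, which ends 13 bases before the start, and 6.75% of all promoters hold one. The shares for the other motifs were 12.4% for the TATA box, 33.8% for the CAAT box, 5.03% for the SOX core and 3.17% for the FOX core. The table held promoters of 6 of the 8 genes, and neither the SOX core nor the FOX core was found in the 250 bases of any of them. A match or its absence describes these letters only.

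*Gja1* (ENSMUSG00000050953, chromosome 10, 56377330–56402513, plus strand) ranked 221 by FPKM among 21590 genes in the GFP-high library against 292 in the GFP-low library. Its coding sequence of 382 codons lies in 1 exon. Its FPKM was 3.89 times that of *Gjb2* in the GFP-high library against 6.96 times in the GFP-low library, so the ratio of Cx43 to Cx26 transcripts was 1.79 times higher in GFP-low cells. Against *Gjb6* the ratio was 10.7 in the GFP-high and 11.9 in the GFP-low library. Of the FPKM of all 20 connexin genes, *Gja1* held 66.1% in the GFP-high library against 68.0% in the GFP-low library, and *Gjb2* held 17.0% and 9.77%. *Gjb6* held 6.16% and 5.69%. Transcripts of all connexins summed to 804 FPKM in the GFP-high library against 616 in the GFP-low library, a fold of 1.31. Of this difference of 189 FPKM, *Gja1* made up 113 FPKM (60.1%) and *Gjb2* 76.5 FPKM (40.5%), and the remaining connexins nearly canceled. *Gjb2*, with the smaller level, thus gave a large part of the difference.

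**Figure D3:**
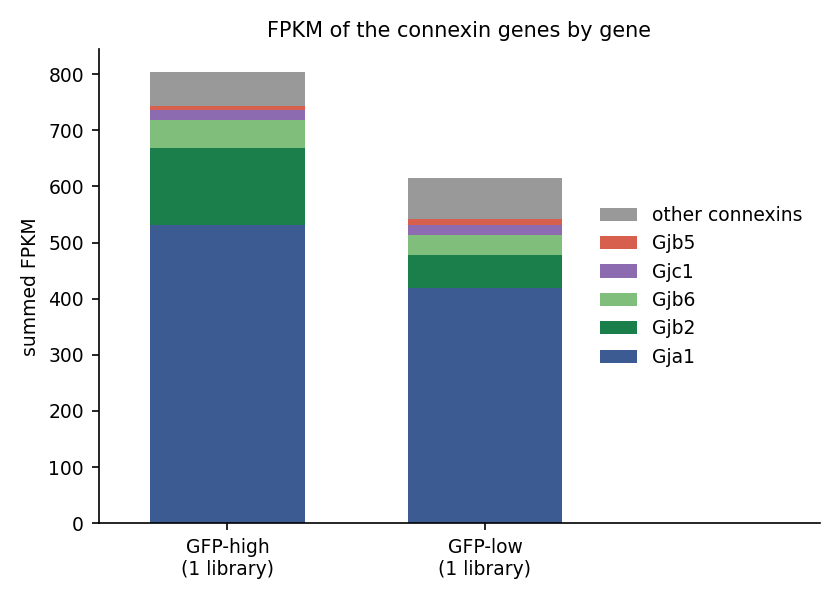
Stacked bars of the FPKM of the 20 connexin genes in the GFP-high and the GFP-low library, colored by gene, from 0 and with no error bars since each population has 1 library. The bars reach 804 and 616 FPKM, *Gja1* is the largest segment of each, genes without a color of their own are summed as other connexins, and the *Gjb2* segment is 136.64 FPKM high in the first and 60.12 in the second.

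Marker genes of keratinocyte layers and of taste cells differed between the same libraries. Of 8 suprabasal keratinocyte genes, 7 had a higher FPKM in GFP-high cells, with a summed FPKM of 51511 against 17177, among them *Krt13* (30523 and 9738 FPKM) and *Krt4* (14203 and 2323 FPKM), keratins of the upper layers of oral mucosa. The exception was *Ivl*, at 0.67 and 2.19 FPKM. All 7 basal keratinocyte genes had a higher FPKM in GFP-low cells, with a summed FPKM of 25796 in the GFP-high and 32952 in the GFP-low library. None of these markers was at 0. Of 10 genes of taste cells and their progenitors, 8 had a higher FPKM in GFP-high cells, with a summed FPKM of 235 in the GFP-high and 126 in the GFP-low library. Enriched in GFP-high cells were 5 of them, among them *Shh* (20.74 and 0.84 FPKM), *Lgr5* (10.79 and 1.56 FPKM), *Krt8* (27.85 and 12.20 FPKM) and *Krt19* (140.97 and 65.30 FPKM), while *Entpd2* was enriched in GFP-low cells. Of all genes at 5 FPKM or more, 9.48% were enriched in GFP-high cells. The authors named these 5 genes among those enriched in GFP-high cells of the same data. The counts and the median of this list are therefore no result about taste genes. *Gnat3*, of mature taste cells, was at 0.92 FPKM in GFP-high cells and listed at 0 in GFP-low cells. Over the genes at 5 FPKM or more the median log2 ratio was 1.99 for the taste genes and 1.37 for the suprabasal genes. The part of the layers and of taste cells in the values of *Gjb2*, *Gjb6* and *Gja1* was not tested, and in sorted bulk cells fewer cells of a type and less RNA per cell cannot be told apart. All 9 fibroblast genes were higher in GFP-low cells, from *Pdgfra* (1.42 and 1.46 FPKM) to *Vim* (95.97 and 644.58 FPKM), and none was at 0 in either population. *Gja1*, which fibroblasts are known to express, had a higher FPKM in GFP-high cells, and the part of fibroblasts in its value was not tested.

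*Gjb5* (ENSMUSG00000042357, chromosome 4, 127354809–127358181, minus strand) encodes Cx31.1, a keratinocyte connexin. It had an FPKM of 8.14 in the GFP-high library against 9.33 in the GFP-low library, a fold of 1.15 in favor of GFP-low cells. It was the lowest of the 6 genes at 5 FPKM or more. The pair *Gjb2* and *Gjb6* held 186 FPKM in the GFP-high and 95.2 in the GFP-low library, a fold of 1.96. *Gjb5*, another epidermal connexin, thus had the opposite direction to this pair, with the smaller fold.

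*Gjc1* (ENSMUSG00000034520, chromosome 11, 102799579–102819700, minus strand) encodes Cx45, known from smooth muscle and from the conducting cells of the heart. It had an FPKM of 17.78 in the GFP-high and 18.16 in the GFP-low library, a fold of 1.02 in favor of GFP-low cells. In GFP-low cells all 5 markers of smooth muscle and pericytes were higher, with a summed FPKM of 49.7 in the GFP-high and 101.0 in the GFP-low library. *Acta2*, the smooth muscle actin, was at 16.33 and 49.50 FPKM, and *Myh11*, the smooth muscle myosin, at 0.80 and 6.56. *Cspg4* made up 30.49 FPKM of the GFP-high sum and 39.28 FPKM of the GFP-low sum. *Gjc1* was at nearly equal FPKM in the same libraries, and the part of smooth muscle cells and pericytes in its value was not tested.

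*Gjb1* (ENSMUSG00000047797, chromosome X, 101376378–101385629, plus strand) encodes Cx32, the connexin of hepatocytes and of myelinating Schwann cells, whose loss causes a peripheral neuropathy. It had an FPKM of 0.62 in the GFP-high and 0.21 in the GFP-low library. These values correspond to about 25 and 11 reads at the depths read from the table. The 95% counting interval of their ratio, 2.95, runs from 1.40 to 6.62 (exact binomial, counting error only). It rests on these approximate reads and leaves out replicate spread, so it is no test of a difference between the populations. In the table as a whole, 16.0% of 15928 genes above 0 in both populations passed 1.5-fold toward GFP-high cells when no minimum was set. *Gjb1* was higher in the population with the lower Schwann lineage markers, and the part of Schwann cells in its value was not tested. All 6 of those markers were higher in GFP-low cells, with a summed FPKM of 67.3 in the GFP-high and 255 in the GFP-low library, and *Erbb3*, which epithelial cells also express, made up 60.25 FPKM of the GFP-high sum.

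*Gjc3*, which encodes Cx29, another connexin of Schwann cells, had an FPKM of 0.18 in the GFP-high library against 7.30 in the GFP-low library. This is a fold of 40.6 in favor of GFP-low cells, with about 20 reads behind its GFP-high value. The fold was 7.03 after 1 was added to each FPKM and 26.4 after 0.1 was added. It was the only GFP-low enriched gene among all 23 connexins and pannexins, a share close to the 4.44% of the whole table. *Sox10* and *Foxd3*, transcription factors of the neural crest and Schwann lineage, were at 0.51 and 42.73 FPKM and at 0.12 and 19.01 FPKM. Both Schwann cell connexins were thus detected, *Gjb1* with its higher value and *Gjc3* with its lower value in GFP-high cells.

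*Panx1* (ENSMUSG00000031934, chromosome 9, 15002128–15045478, minus strand) had an FPKM of 68.24 in the GFP-high and 69.72 in the GFP-low library, a fold of 1.02 in favor of GFP-low cells. Its coding sequence of 426 codons lies in 5 exons. In the order of levels, *Panx1* was above *Gjb2* in GFP-low cells and below it in GFP-high cells, and this was the only exchange among the 8 genes. Both libraries otherwise had the order *Gja1*, then *Gjb2* and *Panx1*, then *Gjb6*, *Gjc1*, *Gjb5*, *Gjb1* and *Panx3*. With 1 library each, it cannot be said which neighbors in this order differ beyond replicate spread. *Panx1* held nearly all pannexin transcripts, since the pannexin genes summed to 68.6 and 69.8 FPKM.

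*Panx3* (ENSMUSG00000011118, chromosome 9, 37659902–37669235, minus strand), known from bone, cartilage and skin, was listed at 0 in the GFP-high library against 0.01 FPKM in the GFP-low library. The latter is the smallest value above 0 that the rounding of the table allows and corresponds to about 1 read, so no fold is given. Of 7 markers of osteoblasts and chondrocytes, 5 were under 2 FPKM in both, among them *Bglap* at 0.49 and 0.12 FPKM, *Ibsp* at 0.10 and 0.08 and *Sp7* at 0.03 and 0.11. The other two encode transcription factors, *Runx2* at 13.04 FPKM in the GFP-high and 24.23 in the GFP-low library, which was enriched in GFP-low cells, and *Sox9* at 35.04 and 25.87. *Panx2*, the pannexin of brain, was at 0.31 FPKM in the GFP-high and 0.09 in the GFP-low library, or about 29 and 11 reads.

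*Gja4*, a connexin of endothelial cells, was at 0.92 FPKM in the GFP-high and 1.39 in the GFP-low library. The vascular connexin *Gja5* was at 0.23 and 0.62 FPKM, and 15.3% of its 50-nt transcript windows also occur in transcripts of other genes. *Gjd3* was at 0.34 and 0.22 FPKM and *Gja6* at 0.34 and 0.31. *Gja10*, *Gjd2* and *Gje1*, which include connexins of retina and neurons, were listed at 0 in both. For the 8 genes described, at most 0.115% of the windows are shared with another gene, and the annotation places no other gene over any of them.

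The scaling of the libraries decides the direction of *Gjc1* and *Panx1* but of no other of the 7 genes with a fold. With GFP-low cells multiplied by 0.973, the median ratio of the libraries over genes that reached 5 FPKM in each, the folds of *Gjc1* and *Panx1* were 1.01 in favor of GFP-high cells. After division of each library by its FPKM sum, every ratio was lower by 0.10 on the log2 scale, and the folds of *Gjc1* and *Panx1* were 1.09 and 1.10 in favor of GFP-low cells. The fold of *Gjb2* ranged from 2.12 to 2.34 over these scalings and pseudocounts, that of *Gjb6* from 1.32 to 1.45 and that of *Gja1* from 1.19 to 1.31. *Gjb1* had a fold of 1.34 after 1 was added to each FPKM. By the FPKM sum, GFP-high genes made up 39.8% of all enriched genes in the table instead of 51.6%.

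**Figure D4:**
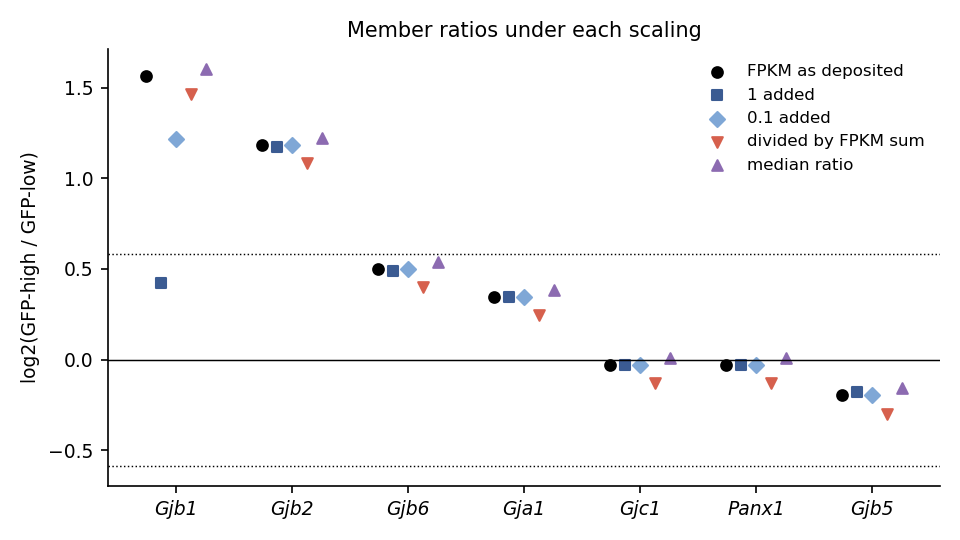
log2 ratio of GFP-high to GFP-low for the 7 connexin and pannexin genes with a fold, as deposited, with 1 or 0.1 added to each FPKM, after division by the FPKM sum of the library and with GFP-low cells scaled by the median ratio (0 is the solid line, 1.5-fold the dotted lines). *Gjb2* stays above the upper dotted line in all 5 settings, *Gjc1* and *Panx1* cross 0, and *Gjb1*, the gene with the lowest FPKM, moves most.

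The genes listed here for proteins that bind connexins or direct their assembly and turnover were well expressed in both populations. All 15 genes of this list were at 5 FPKM or more in both, and none was enriched. The background was 18.4% of genes at that level in either direction. Because the list includes examples picked with values in view, its counts and median are no result about such genes. *Tjp1*, which encodes the scaffold ZO-1 that binds the tail of Cx43, was at 51.4 FPKM in the GFP-high and 45.9 in the GFP-low library. *Cdh1*, the cadherin whose contacts precede gap junctions, was at 382 and 309 FPKM. *Nedd4*, a ubiquitin ligase that binds Cx43, was at 473 and 533. The median log2 ratio of the list was 0.13, against −0.04 over all genes at 5 FPKM or more.

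Of 9 genes for ATP release by routes other than pannexins, 5 reached 5 FPKM in at least 1 population. Of these, 2 were enriched, both in GFP-low cells, where 8.90% of all genes at 5 FPKM or more were. The list includes examples picked with values in view, so 2 of 5 is no result about such genes. *Calhm2*, of the calcium homeostasis modulator channels, was at 4.45 FPKM in the GFP-high and 11.73 in the GFP-low library, a fold of 2.64. *Lrrc8d*, a subunit of the volume-regulated anion channel, was at 23.67 and 44.06 FPKM, a fold of 1.86. *Calhm1*, part of the channel through which type II taste cells release ATP, was listed at 0 in both, and its partner *Calhm3* was at 0.11 and 0.07 FPKM. *Panx1*, at 68.24 and 69.72 FPKM, was above all 9 listed genes but *Vdac1*, a channel found mainly in mitochondria, at 578 and 442 FPKM. The list holds no connexins, of which *Gja1* was above *Panx1* in both populations, so this rank holds for the listed genes only.

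Of 15 ATP and nucleotide receptor genes, 4 reached 5 FPKM, and *P2rx7* alone was enriched, against 18.4% of all genes at that level in either direction, so 1 of 4 is no result about the list. It was at 1.18 FPKM in the GFP-high and 6.19 in the GFP-low library, a fold of 5.25. *P2rx4*, an ATP-gated cation channel, was at 19.11 and 28.43 FPKM, a fold of 1.49 that is just under the limit. *P2ry1* was at 29.65 and 32.43 FPKM and *P2ry2*, known from keratinocytes, at 10.68 and 7.84. *P2rx2* and *P2rx3*, the receptors of gustatory nerve fibers, were under 1 FPKM in both.

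Of 10 genes for enzymes that break down extracellular nucleotides, 5 reached 5 FPKM and 2 were enriched, in opposite directions. Of all genes at that level, 18.4% were enriched in either direction. This list too includes examples picked with values in view, so 2 of 5 is no result about such genes. *Nt5e*, which encodes CD73 and makes adenosine from AMP, was at 187 FPKM in the GFP-high and 109 in the GFP-low library, a fold of 1.72. *Entpd2*, the ecto-ATPase of type I taste cells, was at 23.69 and 42.24 FPKM, a fold of 1.78 in favor of GFP-low cells. *Entpd3* was at 20.99 and 29.19 FPKM.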

How the data were processed

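RNA of 1 GFP-high and 1 GFP-low library from P0 lingual epithelium was analyzed. Per the labels, polyA-selected stranded libraries were sequenced as single-end reads of 50 nt. The authors trimmed them with Trimmomatic 0.36, mapped them to mm10 with GSNAP, and deposited FPKM from Cufflinks 2.2.1, rounded to 2 decimals. The FPKM columns are named means, but each population has 1 sample, so each was read as 1 library. A fold column, the authors' own ratio, was not used.

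Genes and lists were chosen with earlier results of these data known. The 21 entries that GENCODE M21 types as other than protein-coding and the 17 without a number were left out (21590 remain). Enrichment required 5 FPKM in the higher population and 1.5-fold. Values are FPKM from 1 library per population, so no test was run. With 2 libraries a pattern is 1 ratio, and no gene was ranked by likeness. The genes named are connexins and pannexins, and enriched or defining members of the lists; some of them are not reported here. The lists of connexin partners, ATP release, ATP receptors and enzymes also include further examples, picked with values in view.

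Depth was sought as the value at which FPKM times exon length less 200 nt came nearest to whole reads, over genes with 1 transcript of 400 to 2500 nt. Of low values, 55.6% (GFP-high) and 54.6% (GFP-low) lay within 0.15 of a whole read. After exon lengths were shuffled among genes, at most 40.9% and 40.7% did. Reads are therefore approximate, and no count test was run. Calls and depth search were tested on simulated data. The simulated reads followed the same length formula as the search, so this checks the code and not the depths of these libraries. Python 3.11.15, pandas 2.3.3 and scipy 1.17.1 were used. Settings tried were other FPKM minimums, a 2-fold minimum, pseudocounts of 1 and 0.1, division by the FPKM sum and scaling by the median ratio.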

Additional observations from a re-analysis of the deposited data

How the results depend on the processing

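*Gjb2* was the only gene of the 8 enriched in GFP-high cells, and none was enriched in GFP-low cells, under 8 of the 9 settings tried. With no FPKM minimum 2 were enriched in GFP-high cells, *Gjb2* and *Gjb1*. Counts over the table moved by more than 1.5 times from 1020 (GFP-high) and 958 (GFP-low) under 4 settings. A minimum of 1 FPKM gave 1540 and 1563, no minimum 2541 and 2483, a 2-fold minimum 448 and 467, and 5 FPKM in both populations gave 633 in GFP-low cells. No paired analysis was possible because each population has 1 library, and for the same reason no replicate could be left out. The spread between animals or sorts is unknown, and values under 1 FPKM, such as those of *Gjb1*, *Panx2* and *Panx3*, rest on few reads.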
